A study of Mus musculus with 26 samples.

Results

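This account covers 10 genes of voltage-gated calcium channels, chosen as a list of gene symbols and found by matching the Ensembl identifiers of the deposited tables to gene symbols. All 10 were present among the 55401 genes of the tables. They are *Cacna1c*, *Cacna1d*, *Cacna1a*, *Cacna1b*, *Cacna1e* and *Cacna1h*, which encode pore-forming subunits, *Cacna2d1*, *Cacna2d2* and *Cacna2d3*, which encode auxiliary alpha2delta subunits, and *Cacnb3*, which encodes a beta subunit. Expression was measured by RNA sequencing in 26 libraries of 10 groups, made from dorsal root ganglia (DRG) of mice, which house the cell bodies of sensory neurons. The study title concerns a restriction of axon regrowth by the aryl hydrocarbon receptor, a ligand-activated transcription factor encoded by *Ahr*.

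The conditional knockout mice (cKO) carried 2 floxed *Ahr* alleles and Thy1-CRE(ERT2/EYFP), a tamoxifen-inducible Cre recombinase with a fluorescent reporter under a *Thy1* promoter, which drives it in neurons. Controls had the genotype Ahr fl/fl or Ahr fl/+ (also written Ahr f/+) and no Cre, so every mouse of the study had at least 1 floxed allele, and a Cre effect cannot be told apart from an effect of *Ahr* deletion. For the naive and injured groups, tamoxifen (100 mg/kg) was given to both genotypes on 5 days in a row from 28 weeks of age. Lumbar L4 to L6 ganglia were taken 5 weeks later without injury (naive, 3 control and 3 cKO mice), or 1 day after the sciatic nerve was crushed at that time (injured, 3 and 3). Of the control mice, 2 in each of these groups had 1 floxed allele and 1 had 2. Sham-operated mice (2 control, of which 1 had 1 floxed allele, and 2 cKO) gave ganglia 1 day after surgery, from the operated side (ipsilateral) and from the opposite side (contralateral). Semi-purified DRG neurons were collected 24 hours after seeding from 3 control mice with 2 floxed alleles and 3 cKO mice. Age and tamoxifen dosing are stated for the naive and injured mice, and are not stated for the sham mice and the mice that gave neurons.

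Total counts were 20169388 to 23540375 per library in naive and injured ganglia, 39306414 to 58751270 in sham ganglia and 25299938 to 88180611 in neurons, where control replicate 1 was the shallowest. *Ahr* counts were not lower in cKO ganglia (22.2 ± 2.87 CPM, library-scaled counts, in naive control against 25.0 ± 2.80 in naive cKO, SD, n = 3 each), and in injured ganglia the cKO libraries were the higher (38.8 to 40.5 CPM against 36.2 to 38.7), so its counts do not check the labels. *Thy1*, whose promoter is in the transgene, did separate them (742 ± 56.5 against 1350 ± 86.5 CPM), and cKO is used below for the libraries labelled so. All 6 neuron markers were detected in every group. They summed to 3208 to 4021 CPM in the neuron preparations, against 5658 to 6759 in naive ganglia. The 5 macrophage markers summed to 174 to 191 CPM in the neuron preparations, against 107 to 136 in naive ganglia. In the neuron preparations the 5 Schwann cell markers summed to 586 to 744 CPM, against 3221 to 5228 in naive ganglia, while the 4 endothelial markers summed to 812 to 1266 CPM, against 83.1 to 139. All naive and neuron libraries were labelled female and all sham libraries male. The injured libraries were labelled female, except replicate 3 of each genotype, labelled male. In 2 of the 26 libraries, injured control replicate 3 (female by transcripts) and injured cKO replicate 2 (male), sex-linked transcripts went against the labelled sex. Sex was thus not balanced by label between naive and injured ganglia, and sham mice differed in sex from naive mice.

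Voltage-gated calcium channels open when a membrane depolarises and let calcium in. In sensory neurons this entry triggers transmitter release at the central terminals, shapes firing and carries activity to the nucleus. The pore-forming subunit sets the type of current (L, P/Q, N, R or T), the alpha2delta subunits help carry channels to the surface and to terminals, and the beta subunit binds the pore inside the cell. The alpha2delta subunit of *Cacna2d1* is the binding site of the analgesics gabapentin and pregabalin, and the N-type channel of *Cacna1b* is the target of ziconotide, a spinal analgesic.

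Of the 10 genes, *Cacna2d1* and *Cacna1b* were higher after nerve crush, and their promoters are printed as the sequence beside which that change stands. They are RefSeq windows of 300 bases (250 before and 50 after the annotated start) in build GRCm38.p6, read 5′ to 3′ on the strand of the gene. The *Cacna2d1* window is chr5:15934441-15934740 (plus strand) and the *Cacna1b* window is chr2:24763103-24763402 (minus strand). Capitals mark GCGTG, the core of the sequence bound by the aryl hydrocarbon receptor with its partner, on the printed strand or as CACGC on the other.
Cacna2d1: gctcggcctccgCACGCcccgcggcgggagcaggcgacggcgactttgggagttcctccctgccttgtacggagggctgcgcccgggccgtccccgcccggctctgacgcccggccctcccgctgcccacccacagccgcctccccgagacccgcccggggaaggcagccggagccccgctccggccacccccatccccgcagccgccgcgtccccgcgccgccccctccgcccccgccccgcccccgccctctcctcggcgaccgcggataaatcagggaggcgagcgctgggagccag
Cacna1b: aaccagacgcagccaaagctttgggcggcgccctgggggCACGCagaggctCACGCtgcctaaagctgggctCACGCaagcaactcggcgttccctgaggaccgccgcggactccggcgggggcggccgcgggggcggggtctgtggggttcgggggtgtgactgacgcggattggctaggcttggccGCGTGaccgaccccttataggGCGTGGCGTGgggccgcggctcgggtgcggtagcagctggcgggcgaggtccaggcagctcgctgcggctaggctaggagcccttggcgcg
The *Cacna2d1* window held 1 match and the *Cacna1b* window held 6, where adjacent copies form a single run of capitals. Windows were found for 8 of the 10 genes (12 windows in all), and 5 windows of 5 genes held GCGTG, against 32.4% of 32851 promoters of the same length. The windows with a match were 59.7% to 87.3% G or C (80% for *Cacna2d1*, 72.3% for *Cacna1b*). Those without were 40.3% to 81.3%, and the median of all promoters was 52.7%. GCGTG is itself rich in G and C, and promoters of equal base content were not compared. The AP-1 motif TGANTCA, searched because AP-1 factors are induced by nerve injury, was in 0 of the 12 windows and in 7.81% of all promoters. The cAMP response element TGACGTCA was in 0 of the 12 and in 1.79% of all. None of the 3 motifs contains another, both strands were searched, and a match is a match of letters only.

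Levels of different genes were compared per length. In naive control ganglia the deposited FPKM (counts scaled by library total and by length, here the whole span of the gene with its introns) put *Cacnb3* first at 23.5 ± 0.914, followed by *Cacna1h* at 0.686, *Cacna1b* at 0.594 and *Cacna2d1* at 0.414. Next came *Cacna1a* at 0.170 and *Cacna2d2* at 0.159, whose ranges overlapped, then *Cacna1c* at 0.139, *Cacna2d3* at 0.0312, *Cacna1d* at 0.0193 and *Cacna1e* at 0.0116. All other neighbours in this order were apart in every library. The spans run from 13.7 kb for *Cacnb3* to 817 kb for *Cacna2d3*, whose span is 93.7 times its exon length, against 3.41 times for *Cacnb3*. On CPM per kilobase of exon the order was *Cacnb3* (77.9), *Cacna2d1* (14.2), *Cacna1b* (9.23), *Cacna1a* (4.35), *Cacna1h* (4.05), *Cacna1c* (3.88), *Cacna2d3* (2.84), *Cacna2d2* (2.52), *Cacna1d* (0.670) and *Cacna1e* (0.220). Only 4 of the 10 genes kept their rank. On both scales *Cacnb3* was the highest and *Cacna1d* and *Cacna1e* were the lowest, while the order of *Cacna2d1* and *Cacna1h* turned with the choice of length.

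After crush in control mice, 2 of the 10 genes were higher and 0 were lower at an adjusted p under 0.05 (edgeR's quasi-likelihood test over 21261 genes), where 21.6% of all genes were called, 12.9% higher and 8.73% lower. In cKO mice 1 was higher and 2 were lower, where 18.6% of all genes were called, 10.7% higher and 7.89% lower. With the injury effect averaged over genotypes, 2 were higher and 1 was lower, where 34.1% were called, 18.4% higher and 15.7% lower. With 2 or 3 calls among 10 genes, the share called was near that of all genes in these comparisons. Their median log2 fold change was 0.02 in control, against -0.02 for all genes, and -0.05 in cKO, against -0.005.

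*Cacna2d1* (ENSMUSG00000040118.15, chromosome 5, 15934691 to 16374511 in GRCm38, plus strand) gave the widest separation. Its level was 153, 189 and 188 CPM in the 3 naive control libraries and 348, 374 and 308 CPM in the 3 injured control libraries. In cKO it was 226, 183 and 219 CPM in naive and 361, 348 and 333 CPM in injured ganglia. The lowest injured library, at 308 CPM, lay above the highest naive library, at 226 CPM, whatever the genotype. The fold change was 1.94 in control (log2 0.96, SE 0.102, edgeR adjusted p 5.46e-05). It was 1.66 in cKO mice (log2 0.73, SE 0.101, edgeR adjusted p 0.000402). Averaged over genotypes the log2 fold change was 0.84 (SE 0.0717, adjusted p 3.71e-06). *Cacna2d1* remained called in all 17 alternative analyses within each genotype, with log2 fold changes of 0.76 to 1.03 in control and 0.60 to 0.78 in cKO.

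The injury effect on *Cacna2d1* was not shown to depend on genotype. The interaction was -0.23 on the log2 scale, with a 95% interval of -0.54 to 0.08 (edgeR adjusted p 1), and 0% of all genes were called in the interaction of genotype and injury. Among the 10 genes 0 were called and the interaction values ran from -0.23 to 0.07, with 0 at an unadjusted p under 0.05. The interval leaves room for an injury effect in cKO that is smaller by up to 0.54 or larger by up to 0.08.

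Bulk ganglia hold several cell types, and a change in the number of cells of a type cannot be told apart from a change in RNA per cell. Beside the rise of *Cacna2d1*, the 6 neuron markers summed to 5658 to 6759 CPM in naive control and 5652 to 6031 in injured control ganglia, and to 5859 to 6586 and 5729 to 6835 in cKO, so these ranges overlapped. Of the 6 neuron markers 0 rose and 1 fell with injury averaged over genotypes (*Rbfox3*, log2 fold change -0.20, SE 0.0515, edgeR adjusted p 0.00879). Of the Schwann cell, macrophage and peptidergic nociceptor markers 0 were called. Among markers of non-peptidergic nociceptors, *Mrgprd* fell (-0.17) and *P2rx3* rose (0.25). *Tafa4*, 1 of the 3 markers of C low-threshold mechanoreceptors, rose (0.45). In the remaining lists *Kcnj10* (satellite glia) and *Rgs5* (pericytes) rose, and *Fabp7* (satellite glia), *Cldn5* (endothelium), *Lum* (fibroblasts) and *Pvalb* (proprioceptors) fell. No marker was at 0 in any group, and the part of cell composition in the result was not tested.

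**Figure D1:**
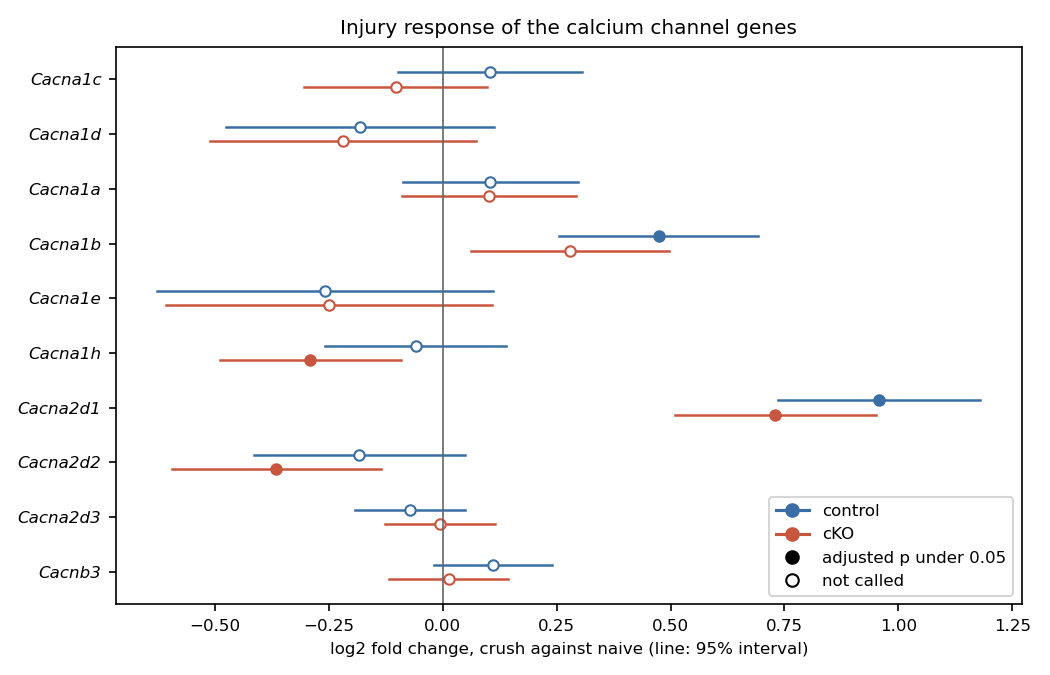
Log2 fold change of crush against naive ganglia for each of the 10 genes, in control (blue) and cKO (red) mice, 3 libraries per group. Lines are 95% intervals and filled points have an adjusted p under 0.05. *Cacna2d1* lies farthest to the right in both genotypes, at 0.96 and 0.73, and the intervals of the genotypes overlap for every gene.

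*Cacna1b* (ENSMUSG00000004113.18, chromosome 2, 24603887 to 24763152, minus strand) encodes the pore of N-type channels, a main trigger of transmitter release from nociceptor terminals. It stood at 84.2, 97.1 and 94.0 CPM in naive control and at 116, 146 and 121 CPM in injured control libraries. In cKO it stood at 117, 95.8 and 116 CPM in naive and at 128, 142 and 129 CPM in injured libraries. Injured libraries were above naive ones within each genotype, and the highest naive cKO library (117 CPM) was level with the lowest injured control library (116 CPM). The log2 fold change was 0.47 in control (SE 0.0999, edgeR adjusted p 0.00526). In cKO mice it was 0.28 (SE 0.0995, edgeR adjusted p 0.0727) and was not called. Averaged over genotypes it was 0.38 (SE 0.0705, adjusted p 0.00137). The interaction was -0.19 (95% interval -0.50 to 0.11, adjusted p 1), so a difference between genotypes was not shown.

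The 2 genes that were lower in injured cKO ganglia were *Cacna1h* and *Cacna2d2*. *Cacna1h* (ENSMUSG00000024112.16, chromosome 17, 25374285 to 25433783, minus strand) encodes a T-type channel of low threshold, found in C-fibre and touch neurons. It was at 48.9, 41.4 and 47.0 CPM in naive cKO and 35.7, 41.3 and 35.5 CPM in injured cKO libraries. In control it was at 38.3, 40.9 and 39.5 CPM before and 34.0, 42.7 and 37.2 CPM after crush. The cKO groups all but touched, at 41.4 CPM in naive replicate 2 and 41.3 CPM in injured replicate 2, and the control groups overlapped. The log2 fold change in cKO was -0.29 (SE 0.0912, edgeR adjusted p 0.0448). In control it was -0.06 (SE 0.0915, adjusted p 0.699), with an interaction of -0.23 (95% interval -0.51 to 0.05, adjusted p 1). Averaged over genotypes it was -0.17 (SE 0.0646, edgeR adjusted p 0.0552), which missed the threshold but passed it in 6 of 22 alternative analyses (adjusted p 0.0144 to 0.155 over the 22). These were a minimum of 10 counts in every library (0.0411), limma-trend on log2 FPKM with either pseudocount (0.0193 and 0.0184), and the fits without naive cKO replicate 2 (0.0222), injured control replicate 2 (0.0144) or injured cKO replicate 2 (0.0244).

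*Cacna2d2* (ENSMUSG00000010066.15, chromosome 9, 107399612 to 107529343, plus strand) encodes the alpha2delta subunit that is known to restrain axon growth of adult sensory neurons. Its level was 26.3, 20.8 and 23.2 CPM in naive cKO and 19.0, 15.6 and 20.0 CPM in injured cKO libraries. In control it was 18.7, 21.8 and 19.5 CPM in naive and 16.8, 18.1 and 17.9 CPM in injured libraries. Every injured library of a genotype was below every naive library of the same genotype, a separation that 38.1% of all genes had in control and 36.1% in cKO. In cKO the log2 fold change was -0.36 (SE 0.105, edgeR adjusted p 0.0307). In control it was -0.18 (SE 0.106, adjusted p 0.255), with an interaction of -0.18 (95% interval -0.51 to 0.14, adjusted p 1). Averaged over genotypes it was -0.27 (SE 0.0747, adjusted p 0.0138).

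Of 17 alternative analyses, the cKO call was lost in 10 for *Cacna1h* and in 6 for *Cacna2d2*. Over the 17 the log2 fold change ran from -0.37 to -0.25 for *Cacna1h* and from -0.45 to -0.24 for *Cacna2d2*. Both were lost in a fit of only the groups compared (adjusted p 0.055 and 0.0712). With a covariate for sex as told by transcripts (all naive cKO mice were female by transcripts, and 2 of 3 injured cKO mice were male), the adjusted p was 0.145 for *Cacna1h* and 0.292 for *Cacna2d2*, and the averaged effect on *Cacna2d2* was at 0.0853. *Cacna1h* was also lost with RLE scaling (adjusted p 0.0511), with no filter on low counts (0.0516), with the replicate block (0.0556), with the labelled sex as a covariate (0.0945) and without naive cKO replicate 1 (0.139), naive cKO replicate 3 (0.12), injured cKO replicate 1 (0.107) or injured cKO replicate 3 (0.133). *Cacna2d2* was also lost with the libraries whose transcripts match the labelled sex (0.153) and without naive cKO replicate 1 (0.117), naive cKO replicate 3 (0.0718) or injured cKO replicate 2 (0.106).

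The other 6 genes were not called after crush in either genotype. *Cacna1c* (chromosome 6, 118587240 to 119196418), the L-type channel of muscle and neurons, was at 73.0 to 88.7 CPM in naive control, 83.1 to 97.0 in injured control, 83.7 to 102 in naive cKO and 86.7 to 91.7 in injured cKO libraries. Its log2 fold change was 0.10 in control (95% interval -0.10 to 0.31) and -0.10 in cKO (-0.30 to 0.10). *Cacna1d* (chromosome 14, 30039939 to 30491455), an L-type channel that opens at more negative voltage, was at 7.78 to 9.46 CPM in naive and 6.40 to 8.41 in injured control libraries. In cKO it was at 8.84 to 9.37 CPM in naive and 6.43 to 9.14 in injured libraries. Its values are uncertain, since *Chdh* overlaps its 3′ end and *Dcp1a* its 5′ end, with counts that were 6.62% to 212% and 103% to 531% of its own. The gene *Dcp1b*, which overlaps *Cacna1c*, had counts that were 6.42% to 16.4% of those of *Cacna1c*.

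*Cacna1a* (chromosome 8, 84388440 to 84640246), the P/Q-type channel of many central synapses, had log2 fold changes of 0.11 in control (95% interval -0.09 to 0.30) and 0.10 in cKO (-0.09 to 0.29). *Cacna1e* (chromosome 1, 154390731 to 154884501), the R-type channel, was low, at 3.34 to 7.76 CPM over the 12 ganglia, and its intervals were wide (-0.63 to 0.11 in control and -0.61 to 0.11 in cKO). *Cacna2d3* (chromosome 14, 28904943 to 29721864) was at 22.4 to 26.0 CPM over the 12 libraries. Its intervals were -0.19 to 0.05 in control and -0.13 to 0.11 in cKO. Of the 3 alpha2delta genes, *Cacna2d1* was thus called higher, *Cacna2d2* was called lower in cKO and averaged over genotypes, and *Cacna2d3* was not called. *Cacnb3* (chromosome 15, 98630840 to 98644529), a beta subunit, had the highest level per length of the 10 in naive control ganglia. It was at 299 to 335 CPM in naive and 329 to 343 CPM in injured control libraries (log2 fold change 0.11, 95% interval -0.02 to 0.24). In cKO its log2 fold change was 0.01 (-0.12 to 0.14).

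**Figure D2:**
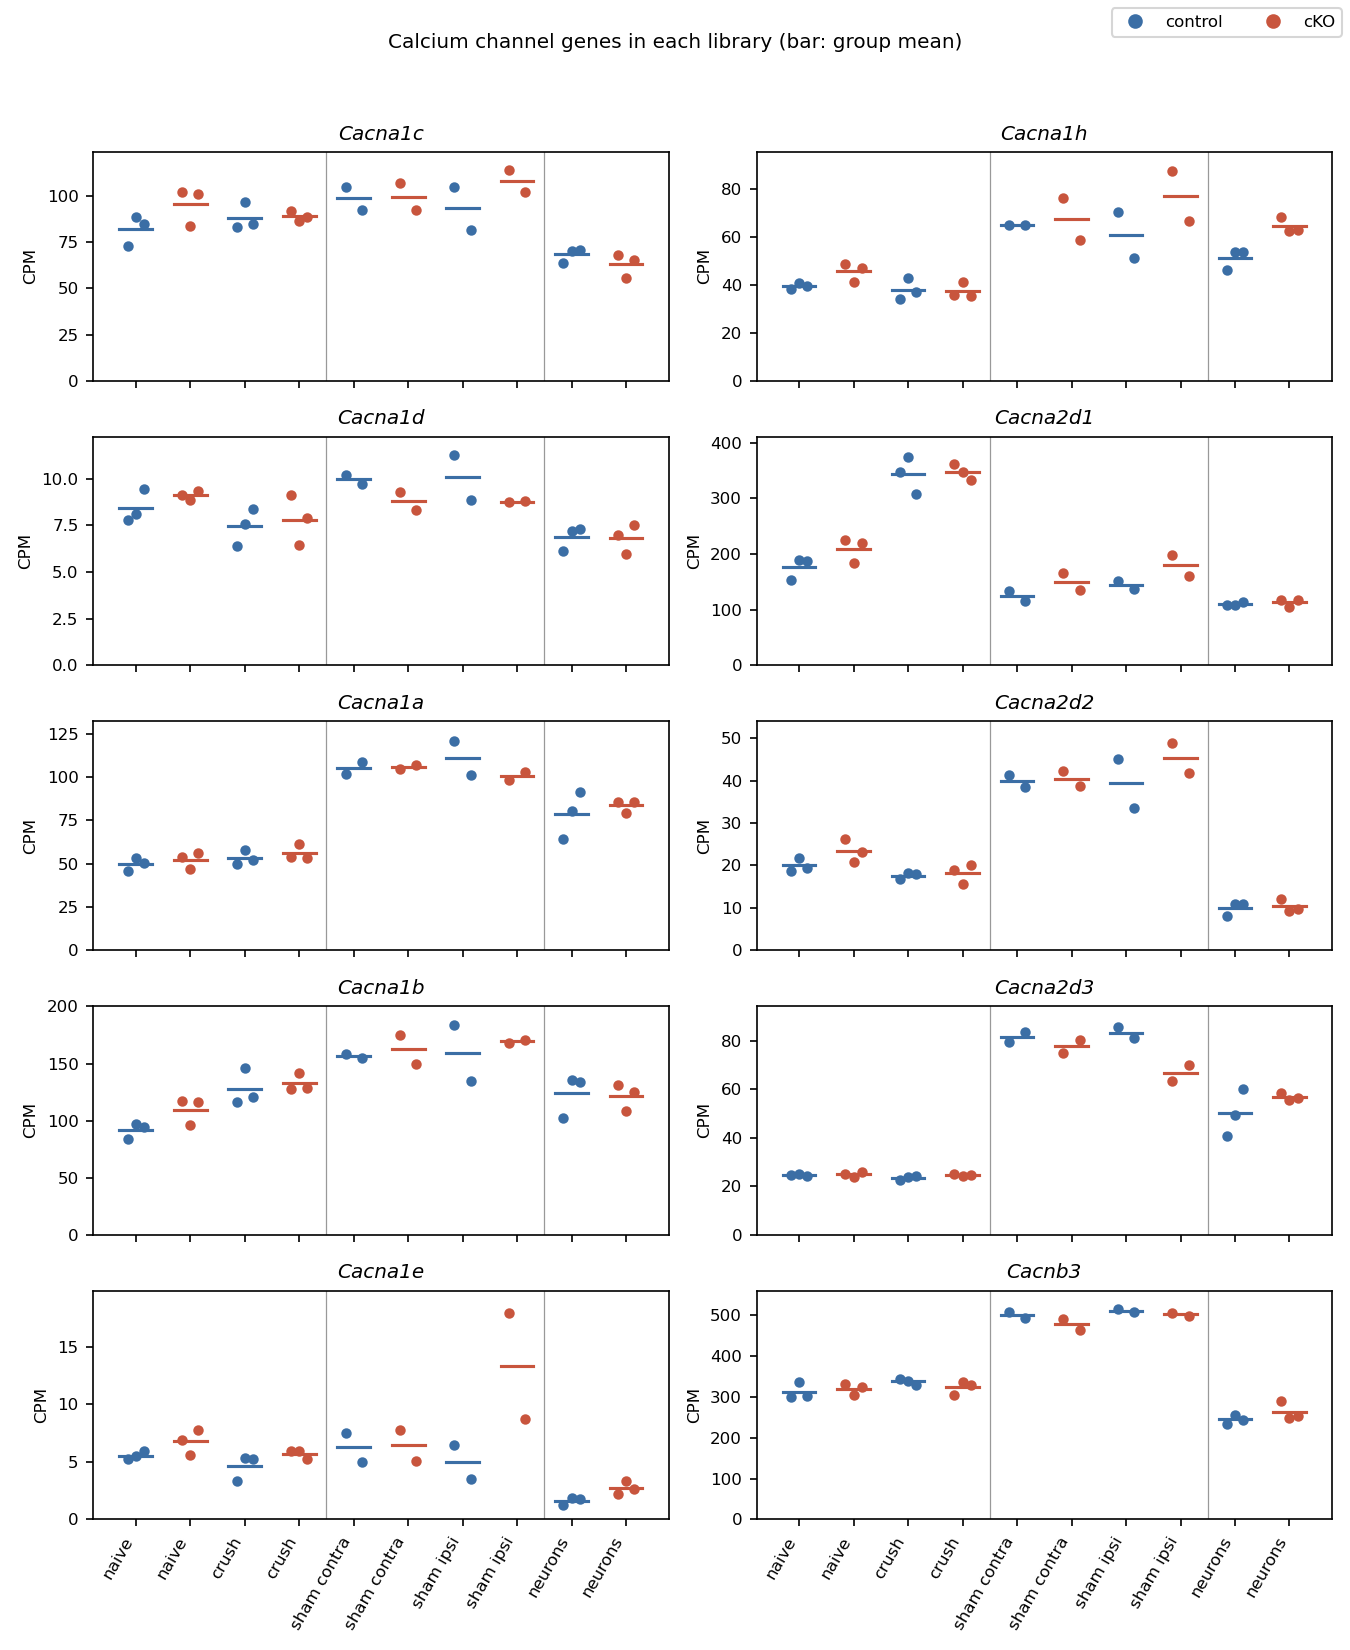
CPM of each of the 10 genes in each of the 26 libraries, with the group mean as a bar, control in blue and cKO in red, each vertical axis starting at 0. Thin vertical lines part the naive and crushed ganglia, the sham ganglia and the cultured neurons, which were fitted apart. *Cacna2d1* goes from at most 226 CPM in the naive libraries to at least 308 CPM in the crushed ones.

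In naive ganglia the libraries labelled cKO were compared with control without injury. Of the 10 genes 0 were called (edgeR adjusted p 0.754 to 0.987), where 0.00941% of all genes were called. All 10 log2 fold changes were above 0, as were 50.1% of those of all genes. Their median was 0.22, against 0.000 for all genes and 0.06 for the 2619 tested genes that span over 100 kb. The 10 genes moved together in several libraries (below), so their signs are not independent. For *Cacna2d3* (0.01) and *Cacnb3* (0.03) the sign turned in 5 and 2 of 17 alternatives. At an unadjusted p under 0.05 there were 5 of the 10, namely *Cacna1b* (0.26), *Cacna2d1* (0.24), *Cacna2d2* (0.23), *Cacna1c* (0.22) and *Cacna1h* (0.21), against 5.79% of all genes. *Cacna1h* was the only one of the 10 whose groups did not overlap, at 38.3 to 40.9 CPM in control and 41.4 to 48.9 CPM in cKO, where 11.5% of all genes had groups apart.

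In some libraries most of the 10 genes deviated from their group mean in 1 direction, and in others, such as the 3 injured cKO libraries (6, 6 and 4 of 10 above the mean), the directions were mixed. In naive cKO replicate 2 each of the 10 was at its lowest of the 3 libraries, by a median of -0.16 on the log2 scale from the group mean. In the same library the neuron markers were at -0.10, the Schwann cell markers at 0.50 and the endothelial markers at 0.44 from their group means. In naive control replicate 1, 9 of the 10 were at their lowest, with a median of -0.10, neuron markers at -0.08 and Schwann cell markers at -0.08. Similar libraries were neuron control replicate 1 (10 of 10 lowest, median -0.18), which was the shallowest of its set, and the ipsilateral library of sham control mouse 2 (10 of 10 lower than in mouse 1). In these 2 libraries the neuron markers were at 0.01 and 0.02 and the Schwann cell markers at 0.08 and 0.26. The part of cell composition or depth in the naive genotype values was not tested.

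**Figure D3:**
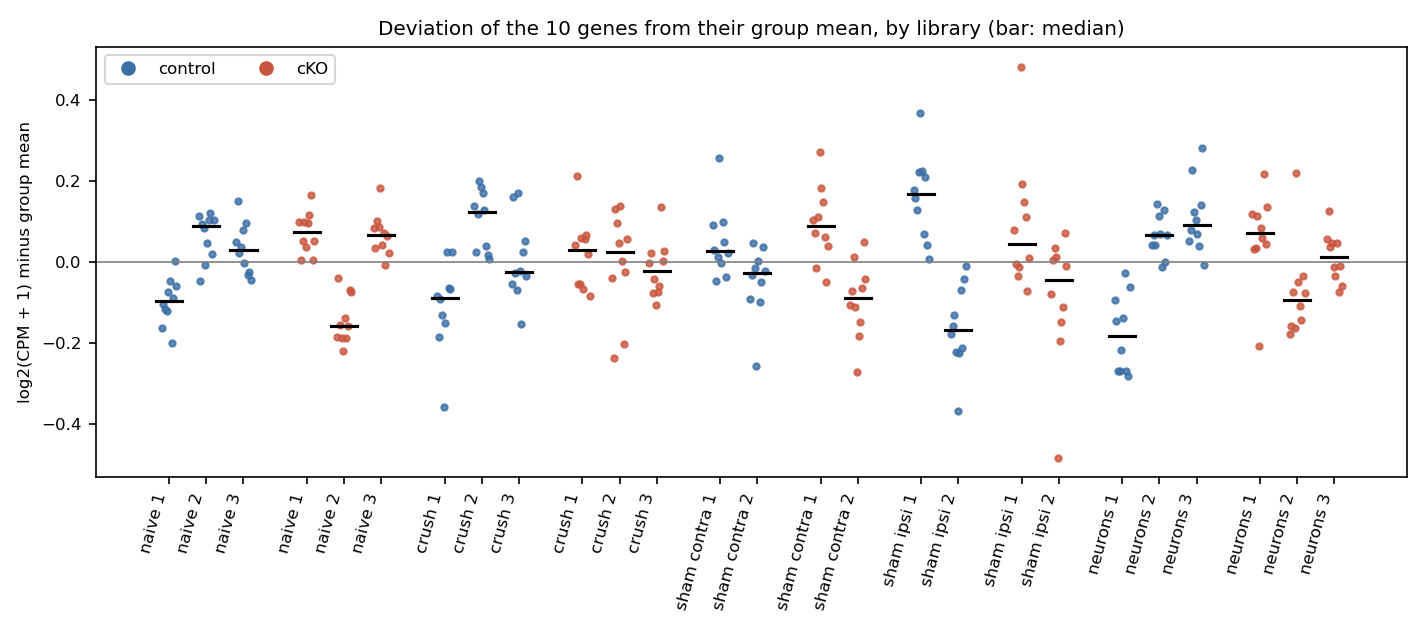
Deviation of log2(CPM + 1) from the group mean for the 10 genes in each of the 26 libraries, each point 1 gene and each bar the median of the 10, control in blue and cKO in red. The 10 genes lie on the same side of 0 in several libraries, all 10 below 0 in naive cKO replicate 2, and the medians of the libraries run from -0.18 to 0.17.

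In injured ganglia 0 of the 10 genes were called between genotypes (edgeR adjusted p 1 for each), where 0.00941% of all genes were called. The log2 fold changes ran from -0.07 (*Cacnb3*) to 0.30 (*Cacna1e*), with 0 at an unadjusted p under 0.05. *Cacna2d1* differed by 0.02 (95% interval -0.20 to 0.23) and *Cacna1b* by 0.06 (-0.16 to 0.28).

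In cultured neurons 0 of the 10 were called between genotypes (edgeR adjusted p 0.411 to 0.974), where 0% of all genes were called. *Cacna1h* was at 46.3, 53.6 and 53.6 CPM in control and at 68.4, 62.3 and 62.9 CPM in cKO neurons, so every cKO library was above every control library. The log2 fold change was 0.33 (SE 0.0791, unadjusted p 0.00286, edgeR adjusted p 0.411). *Cacna1e* was at 1.25, 1.83 and 1.81 CPM in control and 2.22, 3.32 and 2.68 CPM in cKO, again apart, with a log2 fold change of 0.71 (SE 0.212, unadjusted p 0.00963, adjusted p 0.538). Groups were apart for 15.2% of all genes in this comparison. *Cacna2d1* was at 108, 109 and 113 CPM in control and 118, 105 and 117 CPM in cKO neurons, a difference of 0.04 (95% interval -0.11 to 0.20). It stood below every library of the naive and injured ganglia, which were prepared and tabulated apart from the neurons. The sham ganglia, at 116 to 198 CPM, overlapped the neurons. Neurons and ganglia were not tested against each other. In control neurons the order per kilobase of exon was led by *Cacnb3* (60.9), *Cacna1b* (12.5) and *Cacna2d1* (8.86), and *Cacna1e* was again last (0.0648).

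**Figure D4:**
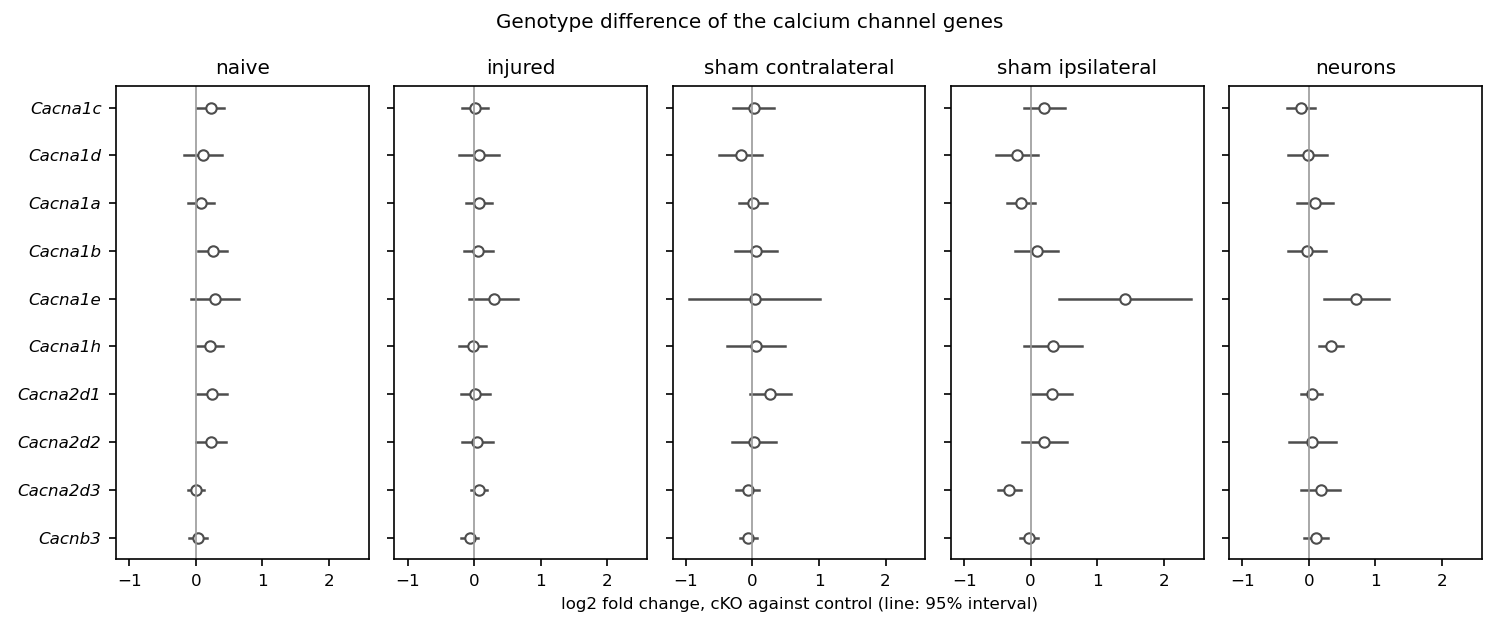
Log2 fold change of cKO against control for each of the 10 genes in naive, injured, sham contralateral and sham ipsilateral ganglia and in cultured neurons. Lines are 95% intervals and open points were not called, which holds for every point shown. *Cacna1e* lies farthest from 0, at 1.42 in the ipsilateral sham ganglia and 0.71 in neurons, with the widest intervals.

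Sham mice gave both sides from each animal. Of the 10 genes 0 differed between the operated and the other side (edgeR, averaged over genotypes), where 0.00451% of all genes were called. This fit had no term for the mouse, so it did not use the pairing of the sides. The fit with the mouse as a block also called 0 of the 10. *Cacna2d1* was at 133 and 116 CPM contralaterally and 151 and 137 CPM ipsilaterally in control mice 1 and 2, and at 166 and 135 against 198 and 161 CPM in cKO mice 1 and 2. It was higher on the operated side in 4 of 4 mice, by a log2 fold change of 0.23 (SE 0.095, unadjusted p 0.041, adjusted p 0.645). Of all genes, 7.56% had an unadjusted p under 0.05 in this comparison. *Cacnb3* was also higher on that side in 4 of 4 mice, by 0.05 (adjusted p 0.837), and the other 8 genes were higher in 1 to 3 of 4. The share of all genes higher in 4 of 4 mice is not given here, and 52.9% had a log2 fold change above 0. The crush values of *Cacna2d1* (0.96 and 0.73) come from other mice in another table, and the difference from the sham value was not tested.

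Between genotypes 0 of the 10 were called on the operated side, where 0.00451% of all genes were called, and 0 on the other side, where 0% were called. The interaction of genotype and side called 0 of the 10 and 0% of all genes (edgeR, 2 mice per group). *Cacna1e* was at 6.45 and 3.48 CPM in control and 17.9 and 8.69 CPM in cKO ipsilateral libraries, while the contralateral libraries were at 7.55 and 4.99 CPM in control and 7.80 and 5.05 CPM in cKO. The cKO libraries were apart from the control libraries on the operated side and level with them on the other. The ipsilateral log2 fold change was 1.42 (SE 0.426, adjusted p 0.528) and the interaction was 1.38 (95% interval -0.01 to 2.77, adjusted p 1). DESeq2 gave an adjusted p of 0.0138 for *Cacna1e* on that side and edgeR without a filter gave 0.00136. *Cacna2d1* was higher in the cKO libraries on both sides without overlap, by 0.31 ipsilaterally (adjusted p 0.654) and 0.27 contralaterally (adjusted p 0.88), neither called. Both sides came from the same mice, so these 2 values are not independent. *Cacna2d3* was at 85.7 and 80.9 CPM in control and 63.4 and 70.1 CPM in cKO ipsilateral libraries, a log2 fold change of -0.32 (SE 0.0748, adjusted p 0.498), which passed the threshold with no filter (0.0273). With 2 mice per group, 33.3% of all genes had groups apart on the operated side and 39% on the other. With DESeq2 152 of 22160 genes were called on the operated side and with no filter 626 of 35021, against 1 with edgeR and the filter, so calls were more frequent over all genes.

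**Figure D5:**
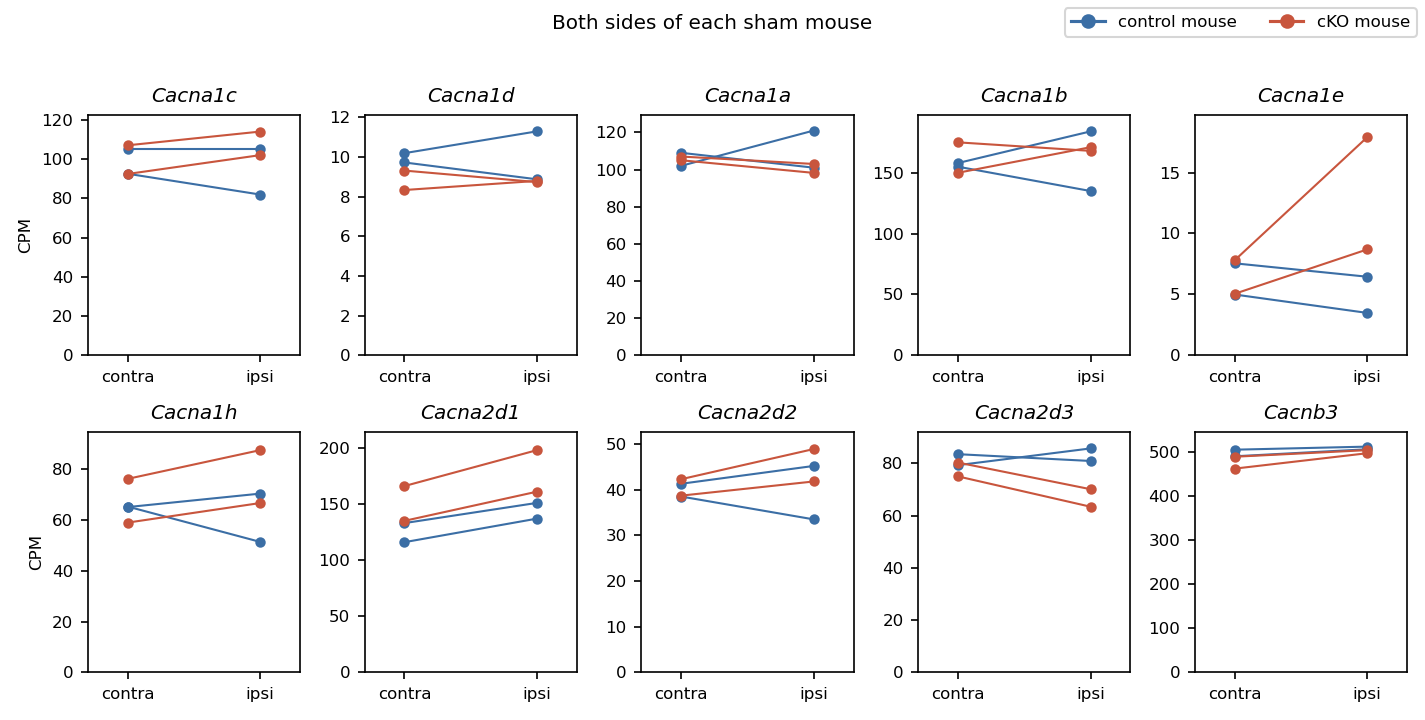
CPM of each of the 10 genes on the contralateral and ipsilateral side of each sham-operated mouse, each line 1 mouse, control in blue and cKO in red, axes from 0. *Cacna2d1* goes up from the contralateral to the ipsilateral side in 4 of 4 mice, and the lines of *Cacna1e* part by genotype on the ipsilateral side.

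Further genes of calcium entry and handling were followed in 4 lists of known genes. Of 16 other channel subunit genes 13 were tested in ganglia, and after crush 1 rose and 3 fell in control while 0 rose and 3 fell in cKO, where 21.6% and 18.6% of all genes were called. *Cacng2* and *Cacng5*, of the gamma family whose members also guide AMPA-type glutamate receptors, fell in both genotypes. *Cacng2* went from 33.3 ± 3.59 to 20.9 ± 2.61 CPM in control (log2 fold change -0.67, edgeR adjusted p 0.000574) and fell by 0.60 in cKO. *Cacng5* went from 38.3 ± 5.58 to 26.8 ± 2.67 CPM in control (-0.51, adjusted p 0.00456) and fell by 0.47 in cKO. The beta subunit *Cacnb2* fell in control (-0.53, adjusted p 0.00142) and the beta subunit *Cacnb1* rose in control (0.27, adjusted p 0.0382), with values of -0.25 and 0.11 in cKO that were not called. The T-type channel *Cacna1i* fell in cKO (-0.65, adjusted p 0.00241) and was at -0.28 in control (adjusted p 0.121).

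Of 10 regulators of these channels 9 were tested in ganglia, and 1 rose and 1 fell in control while 1 rose and 2 fell in cKO, beside the same 21.6% and 18.6% of all genes. *Stac*, an adaptor that promotes L-type channel function, rose from 53.0 ± 3.85 to 103 ± 10.8 CPM in control (log2 fold change 0.96, SE 0.0982, edgeR adjusted p 4.15e-05) and by 0.86 in cKO. An overlapping gene had counts at a median of 15.2% of those of *Stac*. *Rem2*, a small GTP-binding protein that inhibits calcium channels, fell from 20.1 ± 0.999 to 9.38 ± 1.23 CPM in control (-1.10, SE 0.138, adjusted p 0.000173) and by 1.13 in cKO. *Cbarp*, which binds beta subunits and lowers channel activity, fell in cKO (-0.30) and was at -0.09 in control, but its locus is shared with *Atp5d*, with counts at a median of 156% of its own. Of the 5 thrombospondin-family genes, whose proteins bind the alpha2delta subunit of *Cacna2d1*, 0 were called in either genotype.

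Of 21 genes of calcium stores, pumps and store-operated entry, 4 rose and 2 fell in control and 2 rose and 2 fell in cKO, again beside 21.6% and 18.6% of all genes. *Itpr1*, a receptor that releases calcium from the endoplasmic reticulum, rose from 22.2 ± 2.88 to 66.9 ± 3.95 CPM in control (log2 fold change 1.59, SE 0.0942, edgeR adjusted p 8.75e-07) and by 1.70 in cKO, above the values of *Cacna2d1* (the difference was not tested). Among the plasma membrane calcium pumps, *Atp2b2* fell in both genotypes (-0.51 in control and -0.49 in cKO), and *Atp2b4* rose in control (0.42) and was at 0.27 in cKO (edgeR adjusted p 0.0594). *Orai2* fell in both genotypes (-0.37 and -0.29), *Orai1* (0.34) and *Stim2* (0.25) rose in control and were at 0.14 and 0.19 in cKO, and the exchanger *Slc8a3* rose in cKO (0.36) and was at 0.18 in control. In the genotype, sham and interaction comparisons 0 genes of the 4 lists were called.

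Over the 12 naive and injured libraries, 5 genes had log2 CPM most like that of *Cacna2d1* among 14584 genes with a mean of at least 1 CPM. They were *Zbtb33* (Pearson r 0.992), *Anks1b* (0.991), *Nxpe4* (0.990), *Gcnt2* (0.989) and *Tsc22d2* (0.989). Over the 8 sham libraries the same pairs were at 0.562, 0.579, 0.486, 0.796 and 0.203. The 12 libraries share the contrast of crush and naive, and 908 genes had an r above 0.9. Of the other 9 channel genes, *Cacna1b* was closest (r 0.918, rank 672) and *Cacna2d2* was farthest (r -0.51).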

How the data were processed

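Per the labels' protocols, libraries came from ganglia and semi-purified neurons (TruSeq Stranded mRNA). Trim Galore, HISAT2, featureCounts and mm10 are named, without versions or roles, per the submitters' processing notes; the strand setting is not given in the sources used here. The authors deposited whole-number counts per gene and matching FPKM, in 1 pair of tables for naive and injured ganglia and another for sham ganglia and neurons. The length behind the deposited FPKM equalled the whole gene span of GENCODE M21 (GRCm38) within 0.1% for 99.27% of values, so intronic reads may be in the counts. Symbols were matched for 99.53% of genes, and coordinates are those of GRCm38.

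The counts were tested with edgeR 4.0.16 in R 4.3.3 (quasi-likelihood test, two-sided; filterByExpr with a minimum count of 10 and total of 15, TMM scaling, 1 mean per group), with Benjamini-Hochberg adjustment over all genes of a fit and calls at an adjusted p under 0.05. The 12 naive and injured, 8 sham and 6 neuron libraries were fitted apart (21261, 22160 and 23295 genes; biological coefficient of variation 0.0986, 0.155 and 0.131), in 11 comparisons. The SE is the log2 fold change over the square root of F, intervals are 95%, and errors are SD. CPM are TMM-scaled. Fits were tested on simulated data.

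The named genes are the 10 members, called genes of 4 lists (up to 6 per list and comparison), cell type markers, *Ahr* and *Thy1*, and the 5 genes most like *Cacna2d1*. Members and lists were chosen with earlier results of these data known. Replicate numbers come from the labels and do not pair the naive, injured and neuron mice. Both sides of a sham mouse pair, since they come from the same animal. The main fit did not use this pairing, and the mouse as a block was an alternative. Replicates of a group are separate mice in the ganglia and, by their names, in the neurons. Alternatives were DESeq2 1.42.0, RLE scaling, other filters, limma-trend (limma 3.58.1) on log2(FPKM + 0.1) and log2(FPKM + 0.01), fewer groups, replicate number or sex as covariate, and each replicate left out. A fit of the libraries whose transcripts match the labelled sex was added after seeing the data. Apart from the promoter windows, no genome sequence was used, and no table of proteins. The result of 1 marker gene is not reported here.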

Additional observations from a re-analysis of the deposited data

How the results depend on the processing

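Of 1710 values of single genes under an alternative, 1567 kept their direction and side of the threshold, 116 uncalled values changed sign, 17 calls were lost, 10 were gained and 0 called values reversed; the causes were not tested. After crush in control mice 2 genes were called under every alternative run, leaving out a replicate included. In cKO mice 3 were called, and 1 with sex by transcripts as a covariate and 1 with only the groups compared; leaving out a replicate gave 1 to 3, with 1 (*Cacna2d1*) without naive cKO replicate 1 or replicate 3. Averaged over genotypes 3 were called, and 3 to 4 with a replicate left out. On the operated side of sham mice 0 were called, but 2 with no filter on low counts (626 of 35021 genes called in all) and 1 with DESeq2 (152 of 22160), and 0 with a mouse left out. The other 7 comparisons called 0 of the 10 with any replicate left out. By CPM per kilobase of exon, 4 of 10 genes kept the rank they had by FPKM in naive control ganglia. Deviations of same-numbered libraries correlated at -0.615 to 0.561 in naive and injured ganglia (6 of 18 pairs above 0.1) and at 0.0734 to 0.405 in neurons (2 of 3). With the replicate block, 2 genes were called after crush in control, 2 in cKO (*Cacna1h* at an adjusted p of 0.0556) and 3 averaged, and 0 in the other comparisons; with the mouse as the replicate block in sham mice, *Cacna2d1* differed between sides by 0.23 (adjusted p 0.203). Depth limits *Cacna1e* most, with 31 counts in the shallowest neuron library.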
